A study of Mus musculus with 6 samples.

Results

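Guanylate-binding proteins (GBPs) are large GTPases that interferons, above all interferon gamma, switch on in macrophages and many other cells. They assemble on the vacuoles of intracellular parasites and on bacteria in the cytosol, where they help to break the membrane and to activate caspases, and several carry a lipid anchor. In adipose tissue their transcripts are known mainly as readouts of interferon signaling in immune and stromal cells. The genes described here are the 8 listed mouse members Gbp2, Gbp3, Gbp4, Gbp5, Gbp6, Gbp7, Gbp8 and Gbp9, which were chosen by family name and with their difference between the treatments already known. Of these 8, 7 had a row among the 25206 features of the table, matched by Entrez number, and Gbp6 had none and was not analysed here. A further 3 genes of the family, Gbp2b (formerly Gbp1), Gbp10 and Gbp11, were measured and are given beside the members.

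The values come from brown adipose tissue (BAT) of 6 female FoxP3 DTR B6 mice, all carrying the diphtheria toxin receptor under the control of Foxp3, so that the toxin kills Foxp3-expressing cells throughout the body and not in BAT alone. The treated group received diphtheria toxin (DT, mice DT 5, DT 9 and DT 16) and the control group phosphate-buffered saline (PBS, mice PBS 12, PBS 18 and PBS 20), intraperitoneally on 2 consecutive days. Every mouse lived singly at 22°C for 1 week and was then held at 4°C for 2 days from the first injection, the temperatures being those of the labels (the methods name a less severe cold). The sources used here state no ages. All expression values are log2 units after robust multi-array averaging (RMA), 1 array per mouse, and all differences are DT minus PBS.

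Quantile normalization gave the 6 arrays the same distribution, whose median was 5.10, and pairs of arrays correlated at 0.990 to 0.994 across features, which are not independent replicates. Differences were fitted with limma over all features, and a feature was called when its Benjamini-Hochberg adjusted p was below 0.05. Foxp3 was at 4.30, 4.40 and 4.49 in the DT mice, against 4.55, 4.41 and 4.72 in the PBS mice, so the groups overlapped and the difference of -0.16 was not called (adjusted p = 0.587). All 6 values lay below the median of 5.10, so at this weak signal the arrays cannot show how far Foxp3-expressing cells were lost. From real-time RT-PCR of Foxp3 in BAT and spleen, the study reports a rapid systemic depletion of these cells. The brown adipocyte markers identify the tissue, with a mean over 11 genes of 12.3 to 12.4 in DT arrays and 12.3 to 12.4 in PBS arrays.

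In the mouse genome the family lies in a cluster on chromosome 3 and a cluster on chromosome 5. In the RefSeq promoter table (build GRCm38.p6), 5 of the measured genes had an entry, those of the chromosome 3 cluster, and none was listed for Gbp4, Gbp8, Gbp9, Gbp10 and Gbp11. The 250 bases before the start of each are shown because 4 of these genes were higher in DT mice while their neighbor Gbp2b was weak in both groups. Capitals mark a pair of GAAA copies with any 2 bases between them, searched on both strands (TTTC copies in the strand printed), the core letters of the element that interferon-activated factors bind.

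Gbp2, chr3:142620413-142620662, + strand: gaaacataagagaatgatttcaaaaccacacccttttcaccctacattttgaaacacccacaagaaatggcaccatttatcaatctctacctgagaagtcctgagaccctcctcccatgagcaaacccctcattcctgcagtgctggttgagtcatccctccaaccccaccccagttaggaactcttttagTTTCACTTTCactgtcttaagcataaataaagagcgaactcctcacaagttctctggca

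Gbp3, chr3:142559794-142560043, + strand: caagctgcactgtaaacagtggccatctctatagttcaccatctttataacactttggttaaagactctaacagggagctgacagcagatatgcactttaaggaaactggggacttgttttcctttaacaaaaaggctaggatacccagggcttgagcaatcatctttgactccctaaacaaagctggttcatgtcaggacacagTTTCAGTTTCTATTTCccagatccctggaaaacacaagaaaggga

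Gbp5, chr3:142496684-142496933, + strand: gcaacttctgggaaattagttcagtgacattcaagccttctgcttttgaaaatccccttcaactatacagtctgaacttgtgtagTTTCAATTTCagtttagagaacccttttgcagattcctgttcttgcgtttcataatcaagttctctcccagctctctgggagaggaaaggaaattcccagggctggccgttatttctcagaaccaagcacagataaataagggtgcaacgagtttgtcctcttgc

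Gbp7, chr3:142530086-142530335, + strand: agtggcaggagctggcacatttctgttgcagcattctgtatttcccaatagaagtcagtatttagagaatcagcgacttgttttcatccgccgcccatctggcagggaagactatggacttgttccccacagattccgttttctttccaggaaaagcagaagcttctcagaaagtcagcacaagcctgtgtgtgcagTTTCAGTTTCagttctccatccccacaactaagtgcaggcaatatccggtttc

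Gbp2b, chr3:142594597-142594846, + strand: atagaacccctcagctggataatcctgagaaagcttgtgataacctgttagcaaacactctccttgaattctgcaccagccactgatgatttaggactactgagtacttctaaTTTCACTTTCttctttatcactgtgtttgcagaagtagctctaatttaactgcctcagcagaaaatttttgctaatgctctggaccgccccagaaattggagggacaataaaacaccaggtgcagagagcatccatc

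Each of these 5 windows held the spaced GAAA pair, which is found in 2.98% of the 32851 promoter windows of the same length. The match began 59 bases before the start of Gbp2, 53 bases before that of Gbp7, 165 bases before that of Gbp5 and 137 bases before that of Gbp2b, and the window of Gbp3 held 2 overlapping matches, the first 45 bases before the start. Gbp2 and Gbp2b shared the same 10 letters, TTTCACTTTC. A second start site listed for Gbp3 had no match in its window. TTCNNNGAA, the core letters of the gamma-activated sequence element (the motif reads the same on both strands), was found in 2 places each in the windows of Gbp5 and Gbp7 and in none of the windows of Gbp2, Gbp3 and Gbp2b. It occurs in 7.02% of all windows. No match overlapped one of the other motif, and a match describes letters only.

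In DT mice 5 of the 7 measured members, Gbp2, Gbp3, Gbp4, Gbp5 and Gbp7, were higher, by 2.51-fold for Gbp7 to 3.81-fold for Gbp4. Gbp9 was higher in each DT mouse than in any PBS mouse without being called, and Gbp8 overlapped between the groups. Of all features tested, 1.29% were called higher in DT and 0.444% were called lower. Since the same comparison was known when the genes were chosen, the calls and values of the members are a description here and no test of the family.

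**Figure D1:**
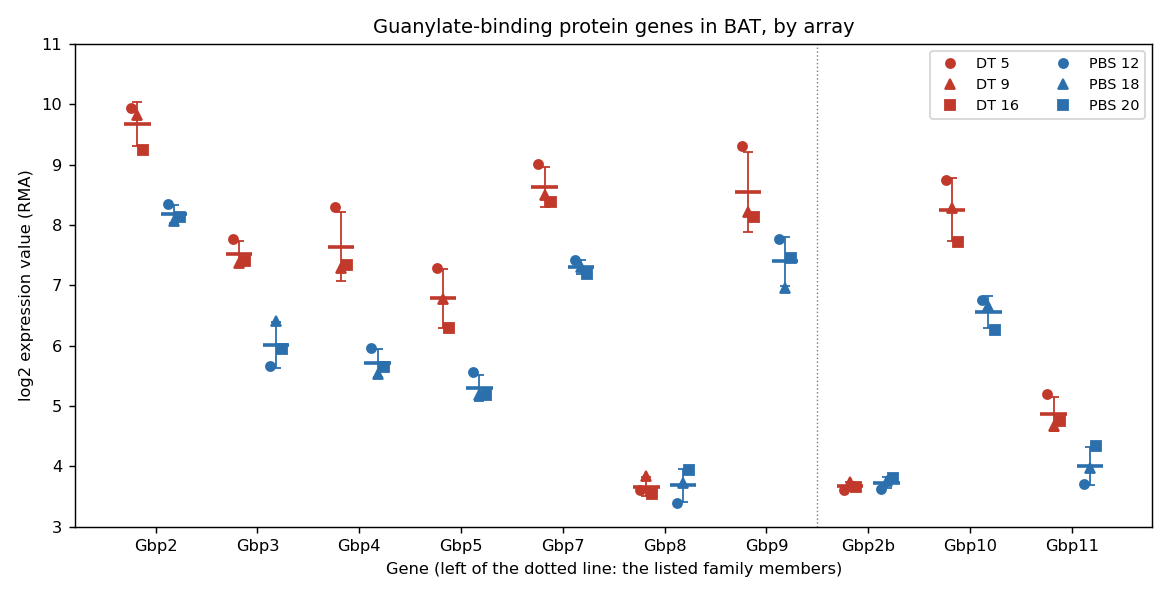
Log2 expression values (RMA, vertical axis) of the 7 measured members and of 3 further Gbp genes in BAT, DT arrays left and PBS arrays right of each gene's position, 1 symbol per mouse, with the group mean (bar) and SD (whisker, n = 3). Gbp2, Gbp3, Gbp4, Gbp5, Gbp7, Gbp9, Gbp10 and Gbp11 are separated by treatment, while Gbp8 and Gbp2b lie between 3.39 and 3.95 in all 6 mice.

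Gbp2, which in mice is recruited to the vacuoles of Toxoplasma, had 9.94, 9.82 and 9.25 in DT 5, DT 9 and DT 16, against 8.35, 8.07 and 8.13 in PBS 12, PBS 18 and PBS 20. All DT mice lay above all PBS mice, with 0.90 between the nearest of them. The group means were 9.67 ± 0.37 in DT and 8.19 ± 0.15 in PBS (SD, n = 3 each), a difference of 1.49 (SE 0.18) or 2.80-fold, with a 95% interval of 2.08-fold to 3.77-fold.

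Gbp7, which in mouse macrophages has been linked to the delivery of oxidase subunits and autophagy proteins to engulfed bacteria, had 9.01, 8.50 and 8.38 in the DT mice, against 7.42, 7.30 and 7.19 in the PBS mice. Its groups were 0.95 apart, and its difference of 1.33 had the smallest SE among the called members (0.17). Gbp3 had 7.76, 7.38 and 7.41 in the DT mice, against 5.66, 6.41 and 5.95 in the PBS mice. Here the PBS mice were the more scattered (SD 0.22 in DT and 0.38 in PBS), since PBS 18 was high and PBS 12 low, and the difference was 1.51 (SE 0.20).

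Gbp5, a lipid-anchored member linked to inflammasome activation in mouse macrophages, had 7.28, 6.77 and 6.30 in the DT mice, against 5.56, 5.18 and 5.18 in the PBS mice. Its DT mice were spread over about a full log2 unit but stayed above every PBS mouse, and the difference was 1.48 (SE 0.24). Gbp4 had 8.31, 7.29 and 7.33 in the DT mice, against 5.97, 5.52 and 5.65 in the PBS mice. With 1.93 (SE 0.27, 95% interval 1.29 to 2.57) it showed the greatest difference of the measured members, and DT 5 alone stood high among the treated mice. The call of Gbp4 held in 1 of the 6 fits with 1 array left out.

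Gbp9, also recruited to Toxoplasma vacuoles in mouse cells, had 9.31, 8.21 and 8.13 in the DT mice, against 7.77, 6.96 and 7.46 in the PBS mice. The groups did not overlap, but DT 5 exceeded the mean of the other DT mice by 1.14, and PBS 12 exceeded the mean of the other PBS mice by 0.56. The residual SD of 0.55 was the largest of the 10 Gbp genes, against a median of 0.12 over all features. Its difference was 1.16 (SE 0.34, 95% interval 0.36 to 1.95), so a 2-fold change lies inside an interval that runs from 1.28-fold to 3.86-fold. In all, 6 of the 7 measured members had every DT mouse above every PBS mouse, as did 8.51% of all features.

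Gbp8 had 3.61, 3.84 and 3.54 in the DT mice, against 3.39, 3.72 and 3.95 in the PBS mice, so the groups overlapped fully. The difference was -0.02 (SE 0.15), with a 95% interval from 0.77-fold to 1.26-fold. All but 1 of its values lay below 3.93, the lower quartile of all values on the arrays, where background compresses differences, so a change of a transcript too weak for its probes could not be seen.

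Of the measured Gbp genes outside the list, Gbp10 had 8.75, 8.29 and 7.71 in the DT mice, against 6.75, 6.66 and 6.26 in the PBS mice, and was called higher (difference 1.69, SE 0.26), a call lost without DT 9, PBS 12, PBS 18 or PBS 20 (adjusted p up to 0.102 by limma). Gbp11, annotated as a transcribed pseudogene, had 5.20, 4.67 and 4.76 in the DT mice, against 3.71, 3.98 and 4.34 in the PBS mice, and was not called although its groups did not overlap (0.86, SE 0.19). Gbp2b had 3.61, 3.74 and 3.65 in the DT mice, against 3.63, 3.76 and 3.80 in the PBS mice, with a difference of -0.06 and a 95% interval from 0.84-fold to 1.09-fold. It lay below the lower quartile in every mouse, so here too a change could not be seen.

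Genes of this family are similar in sequence, the probes behind each value are not in the table, and signal shared between close relatives could not be separated. This applies to the chromosome 5 genes above all, where Gbp6 and Gbp10 are close copies, so that the value of Gbp10 may hold transcripts of both. In whole tissue, more cells that express a gene and more transcript per cell cannot be told apart.

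**Figure D2:**
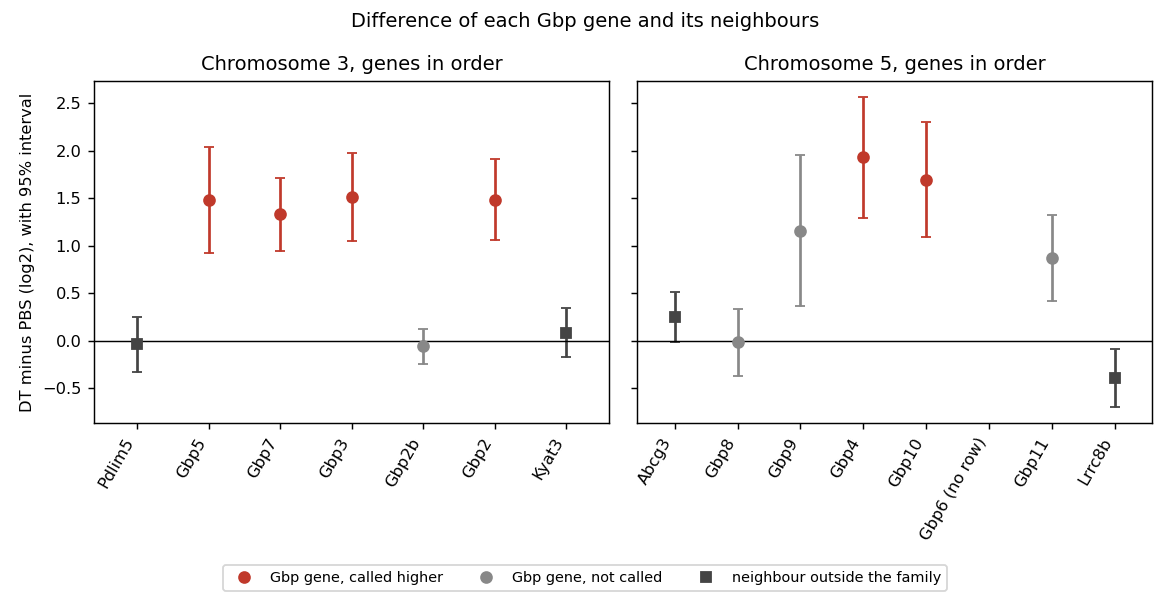
Difference between DT and PBS (log2, vertical axis, with 95% interval of the fit) for the Gbp genes and the protein-coding gene on either side, in their order along chromosome 3 (left) and chromosome 5 (right). Each cluster holds called genes and a Gbp gene of weak signal with a difference near 0. These are Gbp2b, between called genes on chromosome 3, and Gbp8, beside the uncalled Gbp9 on chromosome 5. The 4 flanking genes were not called.

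Both clusters held genes called higher and a weak gene, Gbp2b or Gbp8, in which a change could not be seen. On chromosome 3 the order is Gbp5, Gbp7, Gbp3, Gbp2b and Gbp2, with differences of 1.48, 1.33, 1.51, -0.06 and 1.49. On chromosome 5 it is Gbp8, Gbp9, Gbp4, Gbp10, Gbp6 and Gbp11, with differences of -0.02, 1.16, 1.93, 1.69 and 0.86 for those measured. Thus Gbp2b lay between called genes, and Gbp8 at the edge of its cluster. The nearest protein-coding genes outside the family differed by -0.04 (Pdlim5) and 0.08 (Kyat3) beside the chromosome 3 cluster and by 0.25 (Abcg3) and -0.39 (Lrrc8b) beside that of chromosome 5. None of these 4 was called (adjusted p from 0.25 to 0.943).

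The mice of a group were not alike. DT 5 was the highest of the 6 arrays for 6 of the 7 measured members, and for 14.4% of all features. Averaged over the 7 members, the level was 7.89 in DT 5, 7.40 in DT 9 and 7.19 in DT 16, against 6.30, 6.17 and 6.21 in PBS 12, PBS 18 and PBS 20. The excess of DT 5 over the mean of DT 9 and DT 16 had a median of 0.57 over the members, ranging from -0.08 for Gbp8 to 1.14 for Gbp9, and of -0.01 over all features. The median excess was 0.38 in other interferon-inducible GTPases, 0.31 in type I interferon targets, 0.17 in interferon gamma targets and 0.10 in macrophage markers. Among the controls, PBS 12 was the highest for Gbp2, Gbp4, Gbp5, Gbp7 and Gbp9 but the lowest for Gbp3 and Gbp8.

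**Figure D3:**
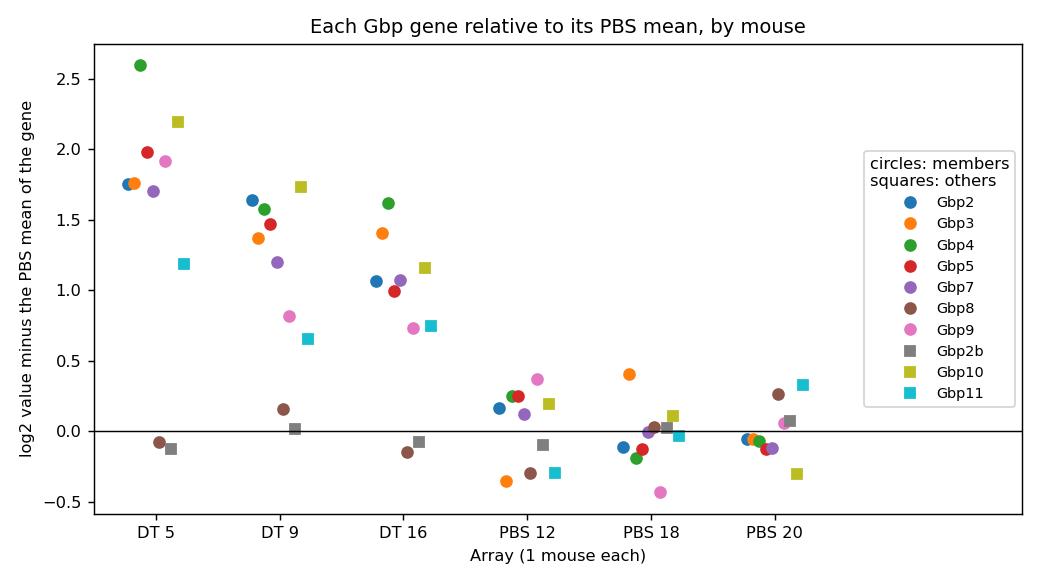
Log2 value of each Gbp gene minus its own PBS mean (vertical axis) in each of the 6 mice (horizontal axis), circles for listed members and squares for the other Gbp genes. DT 5 is uppermost for 8 of the 10 genes, and Gbp8 and Gbp2b stay near 0 throughout.

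The calls rested on few mice. Without DT 5, the mouse with the highest values, all 5 called members were still called by limma. Without DT 9, and likewise without PBS 20, 0 of the 7 passed and 6 of 7 had an unadjusted p under 0.05. Without DT 16, PBS 12 or PBS 18, 3 were called. Of the 6 fits with 1 array left out, Gbp2 and Gbp7 were called in 4 each, Gbp3 in 3, Gbp5 in 2 and Gbp4 in 1. Every member except Gbp8 kept its direction in all of these fits, Gbp9 with differences between 0.77 and 1.37 and Gbp4 with differences between 1.60 and 2.11. When the variance of each gene was estimated alone, with no moderation, 0 members and 0 features passed after adjustment, and 5 of 7 members had an unadjusted p under 0.05.

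The likeness of patterns over the 6 mice was measured as the root mean square difference between log2 values after each gene was centered on its own mean. Gbp2 and Gbp5 (0.13), Gbp8 and Gbp2b (0.13), and Gbp5 and Gbp7 (0.16) were the 3 closest pairs of Gbp genes. Gbp8 and Gbp2b are the weak genes with overlapping groups, so a small distance here also arises between genes that vary little. Gbp8 lay 0.75 to 1.08 from the other members, and Gbp3 and Gbp9 lay 0.55 apart. Outside the family, the nearest named gene was Irgm2, an immunity-related GTPase, for Gbp2 (0.13) and Gbp4 (0.31), and Tap1, the peptide transporter of antigen presentation, for Gbp7 (0.12) and Gbp5 (0.20). Oasl2, of the oligoadenylate synthetase-like genes, was nearest to Gbp3 (0.08), and the endosomal receptor gene Tlr8 to Gbp9 (0.20). Further genes among the 3 nearest to a member were Cxcl9 and Tap1 (Gbp2), Igsf6 and Ifi47 (Gbp3), Rgs1 and Ifi47 (Gbp4), Irgm2 and Evi2b (Gbp5), Irgm1 and Herc6 (Gbp7), and Apol10b and Evi2b (Gbp9). These likenesses span 6 arrays and include the treatment difference itself, and no test was made of them.

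The genes around the family were followed from ligand to target in lists. Of 11 measured genes of interferons and related cytokines none was called by limma, and 0 had an unadjusted p under 0.05. Ifna1 and Ifna2 were listed too but had no row. Ifnb1, Ifnk, Ifne and Il18 had both group means below the lower quartile of 3.93, where a change could not be seen. Over all features, 3344 of 25206 had an unadjusted p under 0.05 in the same fit. Ifng, the ligand that most strongly induces GBPs, had 3.95, 4.39 and 4.22 in the DT mice, against 4.01, 4.32 and 3.95 in the PBS mice, a difference of 0.09 (95% interval 0.84-fold to 1.35-fold) at a weak signal. Ifna4 (-0.25, adjusted p = 0.476) and Ifnl3 (-0.15, adjusted p = 0.586) had the smallest p of that list.

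None of 6 receptor chain genes was called by limma (1, Ifngr2, with an intensity trend and robust prior), and 2 had an unadjusted p under 0.05, Ifngr2 (0.32, SE 0.08, adjusted p = 0.121) and Ifngr1 (0.36, SE 0.11, adjusted p = 0.203). These encode the chains of the interferon gamma receptor, and in both the DT mice lay above the PBS mice. Of 13 genes of signaling kinases and transcription factors 4 rose and none fell, with a median difference of 0.47, against -0.01 over all features. They were Irf7 (1.65, adjusted p = 0.0016), a regulator of type I interferon genes, Stat3 (0.76, adjusted p = 0.0077), and Irf9 (0.96, adjusted p = 0.0206) and Stat2 (0.91, adjusted p = 0.0294), which together form part of the type I interferon activated complex. Irf1, a transcription factor required for full induction of GBPs, had 7.48 to 7.80 in the DT mice and at most 7.23 in the PBS mice, and was not called (0.47, SE 0.11, adjusted p = 0.116). Of 8 inhibitors of the pathway 1 rose, Usp18 (1.04, adjusted p = 0.0103), which restrains the type I receptor, while Socs1 differed by 0.04.

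Among target genes, 5 of 10 other interferon-inducible GTPases rose, with a median of 0.80. Iigp1 (2.52, SE 0.19), Irgm2 (1.62, SE 0.14), Irgm1 (1.32, SE 0.17) and Igtp (1.74, SE 0.23) belong to the immunity-related GTPases, a family of smaller GTPases that act with GBPs on pathogen vacuoles, and the other was the Irgb10 gene (Gm12250, 0.82). Of 18 interferon gamma targets 7 rose, led by p by Nlrc5 (1.24), a regulator of class I antigen presentation, Serping1 (0.71), Tapbp (0.54) and Tap1 (1.25). Of 19 type I interferon targets 8 rose, led by Oasl2 (1.62), Xaf1 (1.08), Rtp4 (1.16) and Ifit1 (1.33). The medians were 0.50 and 0.77. No gene of these lists was called lower. Of the 18 interferon gamma targets, 15 differences were above 0. Ciita (-0.27), Nos2 (-0.21) and Cd74 (-0.18) were lower in DT without being called, and for Ciita every DT mouse lay below every PBS mouse. The measured members had a median of 1.48, and whether the family differed more than these lists was not tested.

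Genes whose products work with GBPs were followed too, with 1.29% of all features called higher as the background. Of 21 genes of ubiquitin-like conjugation, prenylation and binding partners 2 rose, the ubiquitin ligase genes Trim21 (0.83, adjusted p = 0.0169) and Rnf213 (0.84, adjusted p = 0.034). The median of the 21 was 0.05, and 7 of them, in both directions, had an unadjusted p under 0.05. Of 12 inflammasome and pyroptosis genes 1 rose, Casp4 (0.93, adjusted p = 0.0077), the caspase that GBPs help to sense bacterial lipopolysaccharide in the cytosol, with a median of 0.19. The values of Casp4 were 4.99, 5.16 and 5.13 in the DT mice, against 4.34, 4.09 and 4.07 in the PBS mice. In that list 10 of 12 differences were above 0, 6 genes had every DT mouse above every PBS mouse, and 6 had an unadjusted p under 0.05, among them Casp1 (0.56), Pycard (0.33), Nlrp1b (0.32) and Ninj1 (-0.29), none of which was called. Over the 116 genes of these lists, counted once each, 28 rose and 0 fell. Without DT 5 the count was 20, of which 19 were higher and 1, among the GBP partners, was lower. The count was 12 without DT 9, 11 without PBS 12 and 10 without PBS 20. Iigp1, Irgm2, Irf7, Stat3, Nlrc5, Serping1 and Casp4 were called with any 1 array left out. Other calls were less stable. Irf9, Stat2 and Rnf213 were called in 1 of the 6 such fits each, Ifit1 and Rtp4 in 2, Xaf1 in 3 and Oasl2 in 4.

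**Figure D4:**
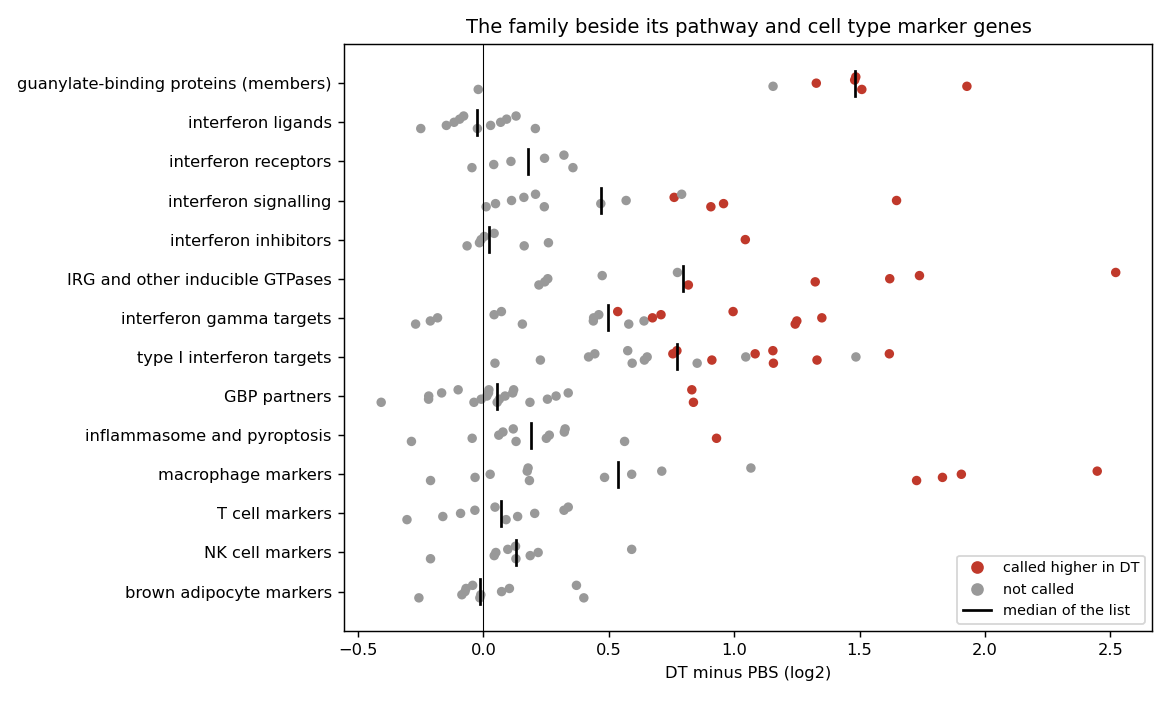
Difference between DT and PBS (log2, horizontal axis) for each gene of the family and of the lists around it (rows), 1 point per gene, red where called higher, with the median of each list as a black line. Ligands, partners and T cell, NK cell and brown adipocyte markers center near 0, while the members have a median of 1.48 and inducible GTPases one of 0.80.

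Part of the markers of macrophages, which express GBPs, were higher beside the family. Of 14 macrophage markers 4 rose (Lgals3, Ctss, Cd68 and Itgam, by 1.73 to 2.45, Itgam losing its call without DT 16 or PBS 12) and none fell, with a median difference of 0.54. Fcgr1 (1.07), Mrc1 (0.71), Adgre1 (0.59) and C1qb (0.48) were not called, though every DT mouse lay above every PBS mouse. The groups overlapped for Csf1r (0.18), Mertk (0.18), C1qc (0.17), Cd14 (0.03), C1qa (-0.03) and Cd163 (-0.21), none of them called. The mean level over the 14 was 7.84 to 8.01 in DT arrays and 6.99 to 7.34 in PBS arrays. DT 5 was highest for 6 of the 14. Of the 14 macrophage markers, 8 had an unadjusted p under 0.05 by limma, against 3344 of 25206 features. No T cell marker (0 of 10) and no NK cell marker (0 of 9) was called by limma, each list with 1 gene at an unadjusted p under 0.05. Their mean levels were 4.46 to 4.74 in DT and 4.46 to 4.56 in PBS for T cell markers, and 4.65 to 4.87 in DT and 4.59 to 4.62 in PBS for NK cell markers. All of these means lay below the array median of 5.10, where weak signal can hide a change. The missing calls therefore do not show that T cells or NK cells were unchanged. Of 7 dendritic cell markers Cd209a fell (-0.75, adjusted p = 0.0441) and none was called higher, but Cd209a was called in 0 of the 6 fits with 1 array left out (adjusted p up to 0.139). Itgax (0.41) and Batf3 (0.25) had every DT mouse above every PBS mouse without being called. In all, 3 of the 7 had an unadjusted p under 0.05 by limma. By limma there were calls for 0 of 5 B cell markers, 0 of 8 endothelial markers and 0 of 11 brown adipocyte markers (0, 2 and 2 at an unadjusted p under 0.05). The B cell markers were weak too, with means of 4.18 to 4.38 in DT and 4.34 to 4.51 in PBS. In these lists without a call, the 2 genes of smallest p were Cd4 (-0.30) and Cd28 (0.32) for T cells and Nkg7 (0.59) and Klrd1 (0.22) for NK cells. For B cells they were Pax5 (-0.19) and Cd79b (-0.37), for endothelium Emcn (-0.27) and Kdr (-0.24), and for brown adipocytes Dio2 (0.40) and Prdm16 (-0.26). The part of any cell type in the GBP difference was not tested.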

How the data were processed

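Total RNA of BAT from 3 DT and 3 PBS mice was labeled with biotin and hybridised to Affymetrix arrays. The authors deposited log2 values, a single one for each Entrez gene, computed by RMA (per the submitters' processing notes) and quantile normalization (per the methods) on a custom chip definition file. Such values carry relative changes only, and background compresses differences of weak genes. Arrays have no read depth, and precision is limited by their number. Groups came from the sample titles. The p-values set each difference against the spread between these mice, with the variance of each gene moderated by that of all features. No genome build is given for the arrays in the sources used here, and gene order and promoter sequences are from RefSeq (GRCm38.p6).

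Features were named through the platform annotation, updated by Entrez number (23185 of 25206). Differences were fitted on all features and all 6 arrays with limma (lmFit, eBayes, version 3.58.1, R 4.3.3), 2-sided, with Benjamini-Hochberg adjustment and a threshold of 0.05. The study's mixed model could not be repeated, since the sources used here do not state its terms. The fit was checked on simulated data. The members and gene lists were chosen with earlier results of these data known. Genes named were all Gbp genes, Foxp3, Ifng, Irf1, and up to 4 called genes per list by smallest p (or the 2 with the smallest p). Also named were the 3 nearest genes outside the family for each member that differed by at least 1. Unnamed features and those with Gm, Rik, LOC, Mir or Snord names were left out of that search. The flanking genes, Socs1, Gm12250, Ucp1, Ciita, Nos2 and Cd74 were chosen after the data were seen. So were the macrophage, dendritic cell and inflammasome genes named without a call, and the ligands named for weak signal or a missing row. Alternatives were a second quantile normalization, median centring, cyclic loess, filters at the lowest 25% and at the median of mean signal, a prior that was robust and followed intensity, weighting of arrays, no moderation, and omission of each array.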

Additional observations from a re-analysis of the deposited data

How the results depend on the processing

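The count of called members was 5 under quantile normalization once more, median centring, cyclic loess, both filters on low signal, the intensity trend with a robust prior and array weights. Gbp8 gave no value under either filter, which removed it. With the intensity trend and robust prior 659 features were called, against 436 in the fit reported, and Gbp11 and Ifngr2 were called too, as were 13 type I interferon targets, against 8 in the fit reported. Without moderation of the variances, 0 features, 0 members and 0 genes of the interferon pathway lists passed after adjustment, against 2986 features, 5 members and 52 list genes at an unadjusted p under 0.05. With 1 array left out, the count of features ranged from 135 to 374, that of members from 0 to 5 and that of genes of the pathway lists from 10 to 21, with 1 gene lower without DT 5. The count of type I interferon targets called was 6 without PBS 18, 4 without DT 5 and 3 without DT 9. It was 2 without PBS 12, and 1 without DT 16 or PBS 20. In fits with 2 mice in 1 group fewer samples enter the test. The difference of Gbp8 changed sign without DT 5, DT 16 or PBS 20 (range -0.17 to 0.11), and that of Ifng without DT 9 (-0.0094, range -0.01 to 0.21), both within their intervals around 0. None of the other genes named by the rule changed sign. No paired analysis was possible because the DT and PBS mice share no animal number.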
